A study of Mus musculus with 6 samples.

Results

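The genes described here encode the constant parts of antibodies. They are the heavy chain genes Ighm, Ighd, Ighg1, Ighg2b and Igha, the light chain genes Igkc, Iglc1, Iglc2 and Iglc3, and Jchain, and they make up 10 of the 32287 features of the gene matrix. They were chosen by name as one family, with earlier results of these data known, and no threshold on a measured value decided which were taken. The data came from 1 CITE-seq experiment, in which transcripts and antibody tags are counted per cell, on CD11b hi cells sorted for TOM from inguinal lymph nodes of 4 Cd169Cre/+.Tdtomato fl/fl mice (CD169Tom mice) on a C57BL/6J background. All 4 mice, the controls included, carried both alleles. Cre stands under the control of Siglec1, the gene for CD169, so that tdTomato marks any cell with past or present Siglec1 activity and the descendants of such a cell. Of the mice, 2 were unimmunized and 2 had been given hen egg lysozyme 9 days before their nodes were taken. For recipients of transferred lymphocytes the study describes this antigen joined to an ovalbumin peptide and given under the skin in Sigma Adjuvant System. Its account of the sequenced mice does not repeat the conjugate or the adjuvant. The study used mice over 6 weeks old of both sexes, but the labels give neither the sex of these 4 mice nor whether they received transferred lymphocytes. Cells of each mouse carried 1 hashtag, and all cells were pooled and then run as 2 captures, so that RNA free in the suspension was shared by every mouse.

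An antibody is built from heavy and light chains, and each B cell makes 1 heavy and, as a rule, 1 light chain. Ighm and Ighd, the genes for IgM and IgD, are read from 1 long transcript in cells that have not met antigen, and class switching later joins the same variable region to Ighg1, Ighg2b, Ighg2c, Ighg3, Ighe or Igha. Light chains are either kappa, from Igkc, or lambda, from the Iglc genes. Jchain links IgM and IgA units into polymers, and plasma cells, which secrete antibody, carry very large amounts of the transcripts for the chains they make. T cells, NK cells and myeloid cells do not rearrange immunoglobulin genes to make these chains, and macrophages take up dying B cells in the follicle.

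On GRCm38 the heavy chain genes lie on the minus strand of chromosome 12, from Igha at chr12:113254830-113260236 through Ighg2b at chr12:113302965-113307933, Ighg1 at chr12:113325240-113330523 and Ighd at chr12:113406604-113416324 to Ighm at chr12:113418558-113422730. Igkc lies on the plus strand at chr6:70726435-70726966. Iglc1 at chr16:19061618-19062071, Iglc3 at chr16:19065230-19065681 and Iglc2 at chr16:19198396-19200351 are on the minus strand, as is Jchain at chr5:88519809-88527891.

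The lambda genes, and likewise the gamma genes, resemble each other to differing degrees. For the closest pair, Iglc2 and Iglc3, this may limit how well reads can be told apart. The last 60 coding bases of the lambda constant genes, near the end of the transcript that a 3′ library reads, are printed 5′ to 3′ on the coding strand, with capitals at the bases that differ from Iglc2. They lie at chr16:19061755-19061814, chr16:19198539-19198598 and chr16:19065368-19065427 in the order given (GRCm38, minus strand, GENCODE annotation).
Iglc1: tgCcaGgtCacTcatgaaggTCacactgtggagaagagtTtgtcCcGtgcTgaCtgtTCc
Iglc2: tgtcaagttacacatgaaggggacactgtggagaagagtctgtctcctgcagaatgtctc
Iglc3: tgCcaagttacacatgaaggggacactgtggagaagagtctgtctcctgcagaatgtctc

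In this stretch Iglc3 differed from Iglc2 at 1 base and Iglc1 differed at 13 bases. Over the whole coding part, Iglc2 and Iglc3 were identical at 96.5% of aligned bases, with 11 of 314 different, while Iglc1 was 73.2% identical to Iglc2. Values of Iglc2 and Iglc3 may therefore be uncertain as to which of the pair a read came from. Only coding bases were compared, and how well reads of this pair are told apart was not tested. The gamma genes are printed over the first 60 bases of their first constant exon, to show how alike the switched classes are, with capitals at the bases that differ from Ighg2c. They lie at chr12:113330464-113330523, chr12:113307874-113307933 and chr12:113288873-113288932 in the order given (minus strand).
Ighg1: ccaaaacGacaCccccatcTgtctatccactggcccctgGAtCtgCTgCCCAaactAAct
Ighg2b: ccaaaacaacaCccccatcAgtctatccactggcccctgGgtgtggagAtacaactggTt
Ighg2c: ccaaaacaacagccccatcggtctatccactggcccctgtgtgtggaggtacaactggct

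Ighg1 differed from Ighg2c at 14 of these bases and Ighg2b at 5, and the 3 exons were 87.6 to 88.3% identical over their whole length. These bases lie at the start of the constant part, while a 3′ library reads near the end of the transcript. How well reads of the gamma classes are told apart was not tested.

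Barcodes were sorted into gates by counts of lineage marker genes that hold no immunoglobulin gene. In the order unimmunized mouse 1, unimmunized mouse 2, immunized mouse 1 and immunized mouse 2, which all series of values below follow, the B gate held 76, 16, 168 and 40 barcodes and the T and NK gate 1081, 151, 347 and 137. The macrophage gate held 363, 49, 526 and 868 barcodes, the monocyte gate 469, 139, 1941 and 2785, and the dendritic gate 190, 42, 299 and 126. A plasma gate held 1, 0, 5 and 8 barcodes. All 12 B cell markers were detected in the B gate of every mouse, with summed levels of 7297 to 9921 CPM (UMIs scaled to the library's total, where a UMI is 1 counted transcript molecule), against 21 to 267 CPM in the T and NK, macrophage, monocyte and dendritic gates. The same markers set the gates, so this contrast was in part fixed by the gating. Transcripts of the sorted label were rare in the lymphoid gates. Over all mice pooled, a Tomato UMI was found in 0.667% of B gate and 0.874% of T and NK gate barcodes, against 4.65% of macrophage and 7.07% of monocyte gate barcodes. By mouse, the share was 1.38, 0, 3.99 and 6.68% in the macrophage gate and 5.76, 4.32, 5.67 and 8.40% in the monocyte gate. It was 1.32, 0, 0.595 and 0% in the B gate and 0.740, 0.662, 1.44 and 0.730% in the T and NK gate. Depth per barcode also differed between gates and mice, and its part in these shares was not tested. A barcode sequence was found in both captures 621 times, and the shallower barcode held a median of 3.64% of the UMIs of the deeper one. Of these pairs, 599 were represented by the deeper barcode alone and 22 were left out.

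Most immunoglobulin UMIs sat in very few barcodes. Of the 237377 UMIs of the 10 genes in 12387 kept barcodes, the 14 plasma gate barcodes held 69.3% and the B gate held 13.8%. The plasma gate held 91.6% of the Ighg2b UMIs, 89.3% of Jchain, 85.2% of Ighg1, 79.1% of Iglc1 and 75.3% of Igkc. Ighm and Ighd were distributed otherwise, with 0.828% and 0.0651% of their UMIs in the plasma gate. Ighd lay mostly in the B gate, at 74.5%, as did Iglc2 at 67.1% and Iglc3 at 74.6%. Ighm was the most widely spread of the genes, with 27.1% of its UMIs in the monocyte gate, 21.4% in the B gate, 14.6% in the macrophage gate and 9.17% in the T and NK gate. Igha was nearly absent, with 18 UMIs in all kept barcodes, 15 of them in the B gate and 0 in the T and NK, macrophage, monocyte, dendritic and plasma gates.

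Each plasma gate barcode carried essentially 1 heavy chain class. The barcodes held 20795 to 53918 UMIs, and the 10 genes made up 6.95 to 53.7% of them, with a median of 27.4%. The leading class held 97.3 to 100% of a barcode's heavy chain UMIs. Ighg2c, the gene for the IgG2c of C57BL/6 mice and not one of the 10, led in 9 barcodes, Ighg2b in 3 barcodes of immunized mouse 1, and Ighg1 and Ighg3 in 1 barcode each of immunized mouse 2. The Ighg1 barcode held 6260 Ighg1 UMIs and 13841 Igkc UMIs of 48016, and the richest Ighg2b barcode held 5033 Ighg2b UMIs and 11791 Igkc UMIs of 33969. Across the 14 barcodes Ighm summed to 143 UMIs, Ighd to 1 and Igha to 0.

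The light chain was mostly kappa. Igkc reached 28173 UMIs in 1 barcode of immunized mouse 1, which held 53918 UMIs in all. Kappa made up more than 90% of light chain UMIs in 12 barcodes, and the other 2 held both kinds. One of these, in immunized mouse 2, held 12051 Igkc and 11050 Iglc1 UMIs with Ighg3, and the other, the only plasma gate barcode of an unimmunized mouse, held 1831 Igkc and 1170 Iglc1 UMIs with 1276 of Ighg2c. Jchain made up 0.323 to 4.84% of UMIs, and the highest share came from a barcode with 1380 Jchain and 2888 Igkc but only 50 Ighg2c UMIs.

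**Figure D1:**
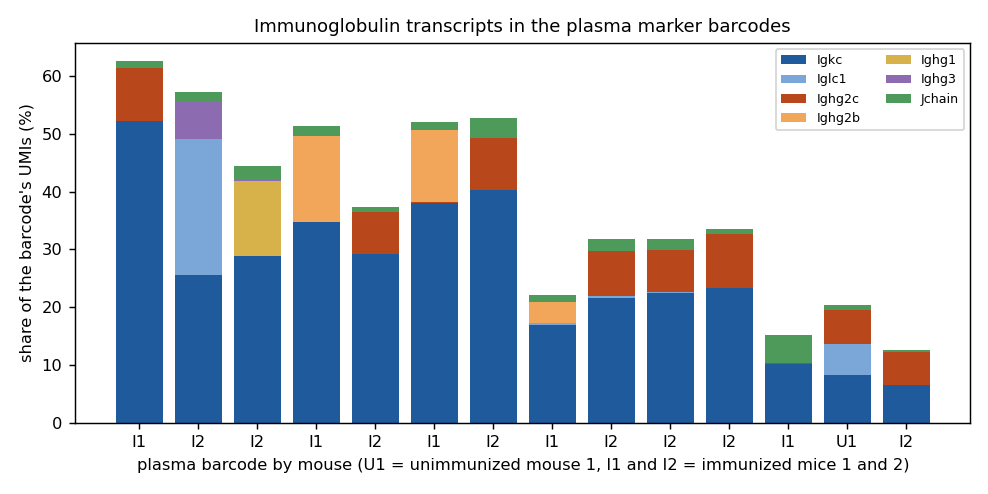
Share of a barcode's UMIs (y axis, percent) taken by Igkc, Iglc1, the gamma classes and Jchain in each of the 14 plasma gate barcodes (x axis, 1 bar each, labelled by mouse and ordered by UMIs of the 10 genes). Bars show 1 gamma colour above the light chain except the barcode of immunized mouse 1 with 50 Ighg2c UMIs, and the Iglc1 colour is large in 2 bars.

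All 14 plasma gate barcodes were the deeper of a pair that shared a sequence between captures, and 10 were in the top 1% of kept barcodes by UMIs. Among all 12387 kept barcodes, 248 were the deeper of such a pair. Leaving out all shared sequences therefore left no barcode in the plasma gate, so the values of that gate rest on these pairs alone. The shallower partners of the 14 held 3.36 to 4.35% as many UMIs. The 10 genes made up 8.57 to 57.8% of these, at most 5.71 percentage points from the share in the deeper barcode. The plasma barcodes also held 2 to 11 of 12 monocyte markers each, on which the plasma gate set no limit. Summed, these markers stood at 8642 CPM in unimmunized mouse 1, 7537 CPM in immunized mouse 1 and 9890 CPM in immunized mouse 2. The monocyte gate held 6276.5 to 9136 CPM of them. The plasma markers stood at 2957, 4809 and 5495 CPM in the same 3 mice. The part of the monocyte markers in the result was not tested. With 1 barcode from the unimmunized mice, no comparison of plasma barcodes by immunization was made.

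In the B gate, Igkc was the most abundant of the genes, at 7935, 10421, 8311 and 8106 CPM. Ighm stood at 2278, 3045, 1263 and 1738 CPM, and Ighd at 1016, 331, 398 and 393 CPM. The unimmunized mice lay above the immunized mice for Ighm, and unimmunized mouse 1 lay apart for Ighd. The lambda genes reached 586 to 1505 CPM for Iglc1, 975 to 1846 CPM for Iglc2 and 435 to 1055 CPM for Iglc3.

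Against the T and NK gate, all 10 genes were called higher in the B gate (edgeR quasi-likelihood test, Benjamini-Hochberg adjusted p under 0.05), where 8.92% of the 11116 genes tested were called higher. The Igha call among them is no separate support, as described below. The log2 fold change was 10.37 ± 0.51 (SE) for Iglc3, 9.26 ± 0.72 for Iglc2, 7.90 ± 0.32 for Iglc1, 7.06 ± 0.39 for Ighd and 6.76 ± 0.44 for Igkc. It was 5.42 ± 0.25 for Ighg2b and 5.16 ± 0.53 for Jchain. Ighm had a smaller difference than these, at 3.98 ± 0.41 (edgeR adjusted p = 7.9e-07), and Ighg1 the smallest, at 3.24 ± 0.80 (edgeR adjusted p = 0.0061). The Jchain UMIs of the B gate lay mostly in few barcodes, described below with the germinal centre markers. The Ighg1 call was lost without unimmunized replicate 1 (3.03) or without unimmunized replicate 2 (3.30). Igha had 15 UMIs in the B gate, 12 of them in immunized mouse 1 and 0 in unimmunized mouse 2, against 0 in the T and NK gate. With 3 UMIs over the T and NK gate as the floor, the pooled B gate level was 25.02-fold that floor. This value leaves out the counting error of the 15 UMIs. The edgeR adjusted p of Igha was 0.015, and the call was lost with DESeq2. All Igha UMIs of the libraries tested were in the B gate. Igha thus passed the filter on low counts only through the gate where it was higher, and its call is no separate support.

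Single B gate barcodes differed in class. Among barcodes with at least 3 heavy chain UMIs, Ighm or Ighd led in most, and a switched class led in 4 of 75, 1 of 15, 41 of 164 and 6 of 39 barcodes. These are 5.33% (95% exact binomial interval 1.47 to 13.1), 6.67% (0.169 to 31.9), 25% (18.6 to 32.3) and 15.4% (5.86 to 30.5), where the intervals cover counting error only. The shares in the immunized mice were the higher ones, but the intervals of the second mouse of each kind overlapped every other, and with 2 mice a side an exact test cannot go below p = 0.333. The leading switched classes of immunized mouse 1 were Ighg1 in 20 barcodes, Ighg2b in 14, Ighg2c in 5 and Ighg3 in 2, and no barcode was led by Igha or Ighe.

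**Figure D2:**
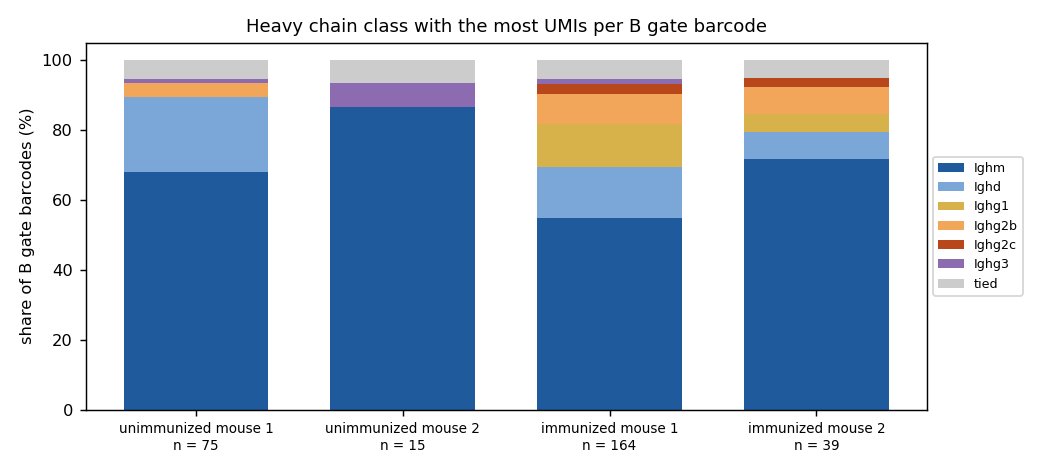
Share of B gate barcodes with at least 3 heavy chain UMIs (y axis, percent) in which each heavy chain gene held the most UMIs, by mouse (x axis, n barcodes under each bar), with ties in grey. Ighm fills most of every bar, and Ighg1 leads in barcodes of the immunized mice and in none of the unimmunized mice.

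Part of the switched barcodes carried germinal centre markers, such as Bcl6, which encodes a factor that governs the germinal centre state. At least 4 of 8 such markers were found in 2, 2, 22 and 1 B gate barcodes, and a switched class led in 2, 1, 15 and 1 of them. The 22 barcodes of immunized mouse 1 held 234 of its 404 B gate Ighg1 UMIs, 126 of its 134 Jchain UMIs and 3 of its 637 Ighd UMIs. Over the 4 mice, barcodes with at least 4 of these markers held 19 of 21, 29 of 29, 126 of 134 and 19 of 20 B gate Jchain UMIs. In the other B gate barcodes Jchain stood at 6.42, 0, 6.18 and 2.98 CPM. The T and NK gate held 3.68, 6.38, 1.96 and 2.72 CPM. Hy10, a feature absent from the mouse annotation used here, had 72 UMIs in kept barcodes, of which 57 were in 4 plasma gate barcodes and 10 in 9 B gate barcodes of immunized mouse 1.

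Light chains were mixed within B gate barcodes. Kappa made up 64.3, 81.6, 75.7 and 74.4% of the B gate's light chain UMIs. Within barcodes holding at least 10 light chain UMIs, the kappa share lay between 10 and 90% in 63 of 76, 11 of 15, 132 of 167 and 33 of 39, so that most barcodes held UMIs of both kinds.

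None of the 10 genes was called by immunization in any of the 5 gates at an adjusted p under 0.05 (edgeR), and in the B gate no gene of any kind was called (0% higher and 0% lower of 11116). The count of values at an unadjusted p under 0.05 was 9 of 50, of which 7 were lower in the immunized mice, and DESeq2 called 1, Iglc2 in the dendritic gate. The share of all genes at the unadjusted threshold is not reported here, so the count of 9 is not read as a result about the 10 genes. With 2 mice a side, a value that misses the threshold does not show that a gene did not differ. The share of all genes without overlap between the 2 conditions is not reported here either. An order of the mice without overlap is therefore not read as a result about a gene. Where 1 mouse is left out below, its condition is 1 library per gate, which is assumed to vary like the libraries of the other groups, so that a call made in that way rests on 1 mouse.

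Ighg1, the class favoured by helper T cells that make interleukin 4, stood at 12.2, 9.46, 253 and 76.4 CPM in the B gate, from 4, 1, 404 and 27 UMIs. Both immunized mice lay above both unimmunized mice. In immunized mouse 2, 17 of the 27 UMIs came from 1 barcode, and 4 of its 40 B gate barcodes held any. Median UMIs per B gate barcode were 3225, 3156.5, 7815 and 4873. The log2 difference of Ighg1 was 4.17 ± 0.73 (SE, edgeR adjusted p = 0.158). Without immunized replicate 2, which leaves immunized mouse 1 alone, it was 4.69 (edgeR adjusted p = 1.4e-06). It did not pass without any of the other 3 mice, with a lowest value of 2.86 without immunized replicate 1. Ighg2c stood at 3.04, 0, 51.9 and 42.5 CPM from 1, 0, 83 and 15 UMIs, also with no overlap, at a log2 difference of 4.60 ± 0.96 (edgeR adjusted p = 0.158), and it was 4.71 and called without immunized replicate 2. Ighg2b stood at 109, 132, 184 and 221 CPM, a log2 difference of 1.00 ± 0.28 (edgeR adjusted p = 0.267). Ighm differed by -0.57 ± 0.51 and Igkc by 0.10 ± 0.48 on the same scale, both less than 2 SE.

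Outside the B and plasma gates, UMIs of Ighm and Igkc were found in cells of every type. In the T and NK gate, Ighm was at 0.871, 0.894, 1.05 and 1.04 UMIs per barcode and Igkc at 0.693, 0.517, 0.683 and 0.511. These values were close to each other in all 4 mice. An Ighm UMI was found in 43.0 to 48.9% of T and NK gate barcodes and an Igkc UMI in 35.0 to 39.2%, at median depths of 5592 to 6814 UMIs. A share of barcodes at or below these was not read as expression in another gate. The source of the UMIs in the T and NK gate was not tested.

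**Figure D3:**
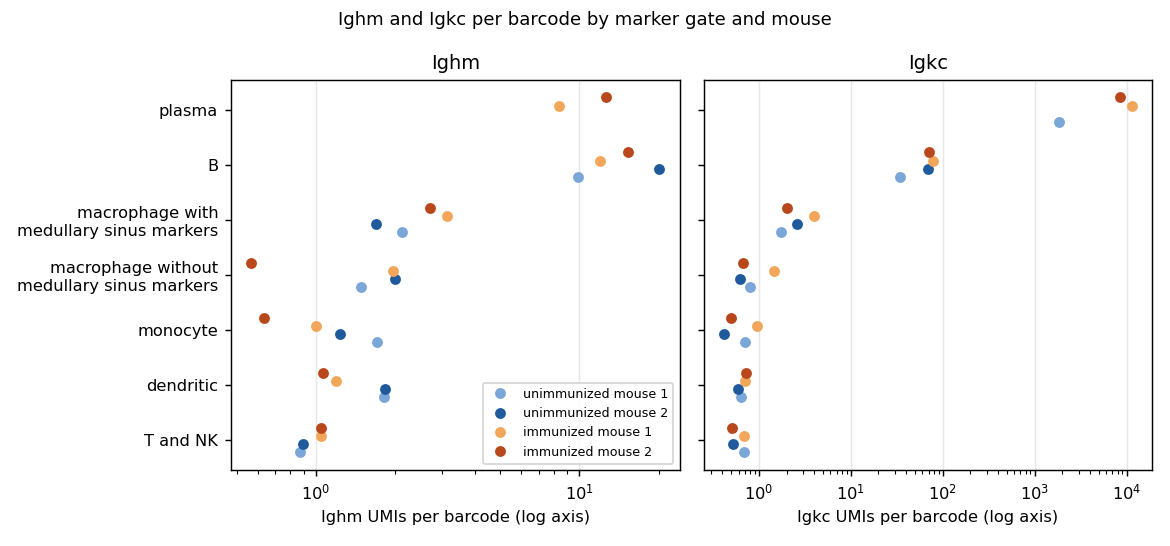
Ighm (left) and Igkc (right) UMIs per barcode (x axes, log scale) by gate (y axis), with 1 point for each mouse and the macrophage gate divided by medullary sinus markers. Igkc in macrophage gate barcodes with these markers lies at 1.74 to 3.96, above the 0.511 to 0.693 of the T and NK gate, and the plasma point of unimmunized mouse 1 for Ighm is at 0 and not drawn.

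Of the 30 values that compare the 10 genes in the 3 myeloid gates with the T and NK gate, 5 passed the test, and 3 of the other values are of Igha, which had 0 UMIs on both sides. In the macrophage gate 2 genes were higher, where 27.6% of all genes tested were called higher and 23.9% lower. Igkc stood at 410, 257, 246 and 48.3 CPM, against 102, 83.0, 92.8 and 63.5 CPM in the T and NK gate. Its log2 difference was 1.63 ± 0.37 (edgeR adjusted p = 0.0014), and it was lost without unimmunized replicate 1 (1.498). Ighm stood at 529, 307, 266 and 42.8 CPM, against 128, 144, 142 and 130 CPM, a log2 difference of 1.18 ± 0.38 (edgeR adjusted p = 0.015). In CPM, immunized mouse 2 lay below its own T and NK gate for both genes, and the other 3 mice lay above. Per barcode, Igkc was at 1.54, 1.55, 2.08 and 0.691 UMIs, above the T and NK gate of each mouse. Ighm was at 1.99, 1.86, 2.25 and 0.613 UMIs, above it in all but immunized mouse 2. Median UMIs per barcode were 1948, 2915, 7290.5 and 14625.5 in the macrophage gate and 6073, 5592, 6240 and 6814 in the T and NK gate. The part of depth in the CPM was not tested. The Ighm call was lost without unimmunized replicate 1 (0.88), without unimmunized replicate 2 (1.37) or without immunized replicate 1 (0.24). With the mouse as a block, Jchain (1.43) and Iglc1 (0.96) were called in the macrophage gate as well.

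In the monocyte gate, where 28.1% of genes were called higher and 26.5% lower, Ighd was lower by the fit (-1.69 ± 0.58, edgeR adjusted p = 0.020), as was Ighg2b (-0.82 ± 0.31, edgeR adjusted p = 0.032), and Iglc3 was higher (2.19 ± 0.90, edgeR adjusted p = 0.048). These rested on small counts, with 10, 1, 15 and 19 Ighd UMIs in the monocyte gate and 36, 3, 8 and 7 in the T and NK gate. The Ighd call was lost without unimmunized replicate 1 (-2.14) or without immunized replicate 2 (-1.32), the Ighg2b call without any 1 of the 4 mice (-0.96 to -0.76), and the Iglc3 call without any mouse but immunized replicate 2 (1.88 to 3.59). Of the 23 Iglc3 UMIs in the monocyte gate of unimmunized mouse 1, 15 came from 1 barcode. In the dendritic gate, where 23.1% were called higher and 20.2% lower, none of the 10 genes was called, and the Igkc difference was -0.49 ± 0.40.

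The macrophage gate was then divided by medullary sinus markers, those of the macrophages that line the outflow sinuses of the node. At least 2 of the 5 markers (Marco, Cd209b, Cd209f, Cd209g and Timd4) were found in 285, 23, 130 and 18 macrophage gate barcodes. In them Igkc was at 1.74, 2.61, 3.96 and 2.00 UMIs per barcode and Ighm at 2.13, 1.70, 3.15 and 2.72, all above the T and NK gate of the same mouse. In a fit with the gate divided, the barcodes with these markers had log2 differences from the T and NK gate of 3.30 ± 0.38 for Igkc (edgeR adjusted p = 3.1e-07), 2.53 ± 0.36 for Ighm, 2.81 ± 0.69 for Jchain, 1.97 ± 0.39 for Ighg2b, 1.91 ± 0.59 for Ighg1 and 2.94 ± 1.15 for Iglc2, all called, where 22% of 10824 genes were called higher. Ighd (1.65 ± 0.81), Iglc1 (1.12 ± 0.73) and Iglc3 (3.26 ± 1.32) did not pass.

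Macrophage gate barcodes without these markers held 0.808, 0.615, 1.47 and 0.664 Igkc UMIs per barcode, also above the T and NK gate of each mouse, and 1.49, 2.00, 1.96 and 0.568 Ighm UMIs, above it in all but immunized mouse 2. Scaled to depth, Ighm stood at 186, 212, 195 and 39.3 CPM and Igkc at 101, 65.3, 146 and 45.9 CPM. Ighm was thus above the T and NK gate in all mice but immunized mouse 2, and Igkc was above it in immunized mouse 1 alone. Their log2 differences were 0.31 ± 0.38 for Igkc and 0.39 ± 0.35 for Ighm, neither called. The division was made after the data were seen, and no mouse was left out of that fit. The barcodes with the markers were shallow, with median UMIs of 1741 to 2752, against 7638 to 14790 in the others of the gate and 5592 to 6814 in the T and NK gate, and the part of depth in the CPM was not tested. By the fit, the B cell gene Cd79a was also higher in them (2.19 ± 0.59, edgeR adjusted p = 0.0049). It was at 0.0491, 0.0435, 0.0308 and 0 UMIs per barcode, with none in immunized mouse 2. The T and NK gate held 13, 4, 10 and 3 Cd79a UMIs in 1081, 151, 347 and 137 barcodes. The call thus rests on small counts in shallow barcodes. Cd79a is also among the B markers that both gates limited to at most 2.

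The proportion of Ighm to Igkc separated the B gate from all others. There were 0.287, 0.292, 0.152 and 0.214 Ighm UMIs per Igkc UMI in the B gate, and 1.26, 1.73, 1.53 and 2.04 in the T and NK gate. The macrophage gate held 1.29, 1.20, 1.08 and 0.887, the monocyte gate 2.42, 2.95, 1.05 and 1.27, and the dendritic gate 2.81, 3.08, 1.70 and 1.46. In the monocyte gate of immunized mouse 1, a single barcode without Ighm held 637 of the 1842 Igkc UMIs, which lowered its value. No non-B value overlapped the B gate, and plasma gate values were 0 in unimmunized mouse 1, 0.00073 in immunized mouse 1 and 0.00147 in immunized mouse 2. Ighm was also far in excess of the B cell transcript Cd79a outside the B gate. There were 33.8 to 72.5 Ighm UMIs per Cd79a UMI in the T and NK gate, against 0.564 to 1.14 in the B gate. Cd79a is one of the B cell markers that set the gates, so this contrast was in part fixed by the gating. As a share of light chain UMIs, kappa reached 92.6, 89.7, 91.2 and 95.9% in the T and NK gate, above the B gate of each mouse.

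**Figure D4:**
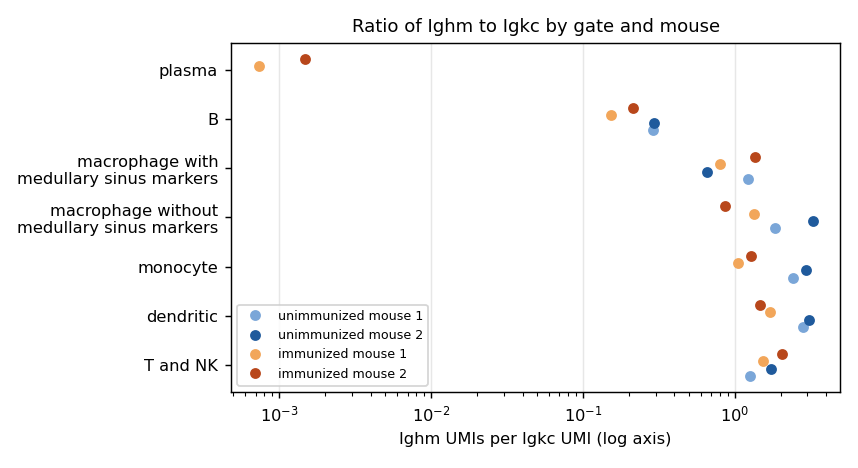
Ighm UMIs per Igkc UMI (x axis, log scale) by gate (y axis), with 1 point for each mouse and the macrophage gate divided by medullary sinus markers. The 4 B gate points lie between 0.152 and 0.292, below every point of the T and NK and myeloid gates, and the plasma point of unimmunized mouse 1 is at 0 and not drawn.

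In the non-B gates, values were in part lower in the immunized mice, and none of the differences passed the test. In the macrophage gate Ighm differed by -1.35 ± 0.53 (edgeR adjusted p = 0.250), Igkc by -1.09 ± 0.51 (edgeR adjusted p = 0.342), Ighd by -2.61 ± 0.79 (edgeR adjusted p = 0.128) and Ighg2b by -1.61 ± 0.43 (edgeR adjusted p = 0.084) on the log2 scale, where 0.18% of genes were called higher and 0.693% lower. Without immunized replicate 1, with immunized mouse 2 as the only immunized library of the gate, the 4 adjusted p were under 0.05, at -3.16 for Ighm, -2.66 for Igkc, -3.49 for Ighd and -1.90 for Ighg2b, and without immunized replicate 2 the Ighm difference was -0.53 and the Igkc difference -0.31. With the gate divided, barcodes with medullary sinus markers differed by 0.06 ± 0.51 for Igkc and -0.06 ± 0.50 for Ighm. Among barcodes without medullary sinus markers, Igkc differed by 0.23 ± 0.56 and Ighm by -0.65 ± 0.51.

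The gate's composition and depth moved with immunization. Barcodes with medullary sinus markers were 285 of 363 and 23 of 49 in the unimmunized mice and 130 of 526 and 18 of 868 in the immunized mice, and median UMIs per barcode were 1948 and 2915 against 7290 and 14626. The summed level of the B cell markers in the macrophage gate was 108 and 84.5 CPM against 61.5 and 41.6 CPM, with 6 to 12 of 12 markers detected, and in the T and NK gate it was 267 and 187 CPM against 130 and 83.4 CPM. Their part in the differences by immunization was not tested.

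In the monocyte gate, Ighm stood at 202, 135, 89.2 and 46.7 CPM and differed by -1.24 ± 0.52 (edgeR adjusted p = 0.306), where 0.153% of genes were called higher and 0.441% lower. Both immunized mice lay below both unimmunized mice, and without immunized replicate 1, with 1 immunized library left, it was called at -1.77. Igkc in the monocyte gate, at 83.4, 45.6, 84.5 and 36.8 CPM, showed no such order (-0.05 ± 0.51). However, 637 of the 1842 Igkc UMIs of immunized mouse 1 came from 1 barcode, which held 4 plasma markers. In the dendritic gate, where 0.36% were called higher and 0.288% lower, Ighm stood at 138, 144, 99.9 and 73.8 CPM (-0.65 ± 0.55) and Igkc at 49.0, 46.9, 59.0 and 50.7 CPM (0.23 ± 0.59). Iglc2 differed there by -4.28 ± 1.27 (edgeR adjusted p = 0.135), but 53 of the 54 Iglc2 UMIs of unimmunized mouse 2 came from 1 barcode. In the T and NK gate, where 0.027% were called in each direction, Ighm differed by 0.13 ± 0.54 and Igkc by -0.12 ± 0.54.

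The difference by immunization was also compared between gates. The Ighm difference in the macrophage gate less that in the T and NK gate was -1.48 (edgeR adjusted p = 0.623) and the Ighd difference was -2.58 (edgeR adjusted p = 0.532), and none of the 10 genes was called, where 0% of genes were called higher and 0.045% lower. Over all 40 such values for the B and myeloid gates, 0 were called and the lowest adjusted p was 0.438 (edgeR). The shares of all genes called were 0% in both directions for the B gate, 0% higher and 0.054% lower for the monocyte gate, and 0.009% higher and 0.018% lower for the dendritic gate.

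As a share of all UMIs, the 10 genes made up 1.58, 1.66, 1.32 and 1.34% in the B gate, lower by 0.291 percentage points in the immunized mice with no overlap (exact permutation test over the 4 mice, two-sided, p = 0.333, the lowest possible here). In the T and NK gate they made up 0.0255, 0.0253, 0.0260 and 0.0215%. In the macrophage gate the share was 0.101, 0.0601, 0.0547 and 0.0111%, a difference of -0.0475 percentage points (exact permutation p = 0.333). In the monocyte gate it was 0.0312, 0.0192, 0.0192 and 0.00969% (exact permutation p = 0.667) and in the dendritic gate 0.0208, 0.0324, 0.0176 and 0.0147% (exact permutation p = 0.333). However, 1 barcode held 90 of the 173 UMIs of the dendritic gate in unimmunized mouse 2. Another held 680 of the 4187 UMIs of the monocyte gate in immunized mouse 1. The order of the mice in these 2 gates thus rests in part on single barcodes.

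Other genes of the antibody pathway were described by 4 lists. Of the B cell receptor complex and its co-receptors, 10 of 10 were higher in the B gate than in the T and NK gate, with a median log2 difference of 6.74 against -0.11 over all genes tested. They included Cd79b (6.44 ± 0.31), which carries the receptor's signal with Cd79a, and the kinase gene Btk (3.90 ± 0.26). Genes of this list, Cd79a, Cd79b, Cd22 and Cr2 among them, also served to set the gate. In the macrophage gate 7 of the 10 were higher and 1 lower, in the monocyte gate 5 and 0, and in the dendritic gate 5 and 0. Over all genes tested, 27.6, 28.1 and 23.1% were called higher and 23.9, 26.5 and 20.2% lower in the same order. Those higher in all 3 were Btk, Lyn, Syk and Cd81, which myeloid cells also use.

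Of 8 measured receptors and transporters of immunoglobulin, 6 were higher in the macrophage gate (27.6% of all genes) and 6 in the monocyte gate (28.1% of all genes), with medians of 3.49 and 3.27 against 0.00 and -0.02 over all genes tested. Fcgr1, the high-affinity receptor for IgG, had log2 differences of 4.75 ± 0.34 and 4.70 ± 0.33, and Fcgr4 had 4.47 ± 0.42 and 4.48 ± 0.39. The dendritic gate was higher in 2 of the 8 (23.1% of all genes), so this count is not read as a result about the list. The 2 were Fcgrt (4.90 ± 0.31), which carries IgG across cells, and Fcgr2b (2.26 ± 0.24), which inhibits. In the B gate 3 of the 8 were higher and 2 lower, where 8.92% of all genes were called higher and 12.9% lower.

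Among the measured class switching genes, Batf, a transcription factor of activated lymphocytes, was lower in the B gate (-1.99 ± 0.29), where 12.9% of all genes were called lower. Counts over the class switching list are not reported here, so this value does not describe the list. Of 11 measured genes of immunoglobulin secretion, Mzb1 (8.71 ± 0.28) and Irf4 (1.78 ± 0.49) were higher in the B gate and Prdm1 (-1.60 ± 0.46) and Sec11c (-0.56 ± 0.14) lower, beside 8.92% and 12.9% of all genes. Mzb1 and Prdm1 are among the markers that set the plasma gate, so their values were in part fixed by the gating. None of the genes of these lists was called by immunization in any of the 5 gates.

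Over the 20 libraries of mouse and gate, the genes outside the immunoglobulin family whose log2 CPM followed Igkc most closely were Cd79a (Pearson r 0.976), Gm30211 (0.972), Ebf1 (0.962), Cd79b (0.958) and Bhlhe41 (0.954). Without the 4 B gate libraries the same values were 0.737, 0.749, 0.590, 0.587 and 0.397 over 16 libraries. The libraries share mice, captures and free RNA, and Cd79a, Cd79b and Ebf1 set the B gate, so these values describe the libraries only.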

How the data were processed

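For the gene matrix, the authors used Cell Ranger 4.0.0 with its aggregation step and an mm10 reference, which gives UMI counts. Tag counts came from CITE-seq-count. The sources used here do not say whether aggregation equalized the captures' read depth. The deposited matrices hold whole counts. Members and gene lists were chosen with earlier results of these data known.

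Of 18662 barcodes, 12387 were kept, with at most 25% mitochondrial UMIs and 1 hashtag holding at least 80% of at least 10 hashtag counts. Hashtag matrices carry no capture ending, so of 621 sequences found in both captures the deeper barcode was kept where its partner had under 10% of its UMIs. No separate doublet caller was run beyond the hashtags, which cannot show doublets within a mouse. B gate barcodes had at least 5 of 12 B cell markers and at most 2 T and NK markers. T and NK gate barcodes had at least 4 of 12 and at most 2 B markers. Both had at most 3 macrophage and 5 monocyte markers. Myeloid barcodes had at least 3 markers of 1 class, more than of the other 2, with at most 2 B and at most 2 T and NK markers. Plasma barcodes had at least 5 of 8 plasma markers, fewer than 4 T and NK markers and at most 7 B markers. Near these limits, 142 kept barcodes had 3 or 4 B markers, 75 had 3 T and NK markers and 57 had 4 plasma markers. The gates left 2537 barcodes ungated, and 23 with B and myeloid markers stood apart. Of the 9513 T and NK and myeloid barcodes, 7958 held a UMI of a B or plasma marker.

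Counts were summed per mouse and gate into 20 libraries of 105746 to 37834461 UMIs and tested in 1 fit with edgeR 4.0.16 (TMM, filterByExpr, quasi-likelihood, common dispersion 0.0323) in R 4.3.3. The mouse is the replicate. Each animal gave a library in every gate, which pairs libraries across gates, and correlations of their deviations from the group means ran from -0.074 to 0.547. Single values were compared with an exact permutation test over mice. Alternatives used DESeq2 1.42.0 and HTODemux of Seurat 5.3.0. The test was checked on simulated counts. Shares carry exact binomial intervals, and these and floors cover counting error only. Genes named were the 10 members, Hy10, Ighg2c, Ighg3 and Ighe, list members past the test in the contrast described, and the 5 genes closest to Igkc by Pearson r. Sequences and positions are from GENCODE on GRCm38, the assembly also called mm10. Single values of some list genes are not reported here. The antibody counts were not used beyond the barcode match.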

Additional observations from a re-analysis of the deposited data

Results flagged for a closer look

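Immunoglobulin UMIs were also present outside the barcodes compared. One ungated barcode of immunized mouse 1 held 8146 Igkc, 1331 Ighg2c and 286 Jchain UMIs of 62184, together with 6 T and NK and 7 plasma markers, and it entered no gate for that reason. A further 5 barcodes with plasma markers had no single accepted hashtag, with the top hashtag at 44.8 to 71.0% of hashtag counts, and they held 50769 UMIs of the 10 genes, from 3569 to 20212 each. The 599 shallower barcodes of sequences found in both captures held 10477 UMIs of the 10 genes, 1.82% of their UMIs, against 1.61% in the deeper barcodes.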

How the results depend on the processing

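With 2 mice a side, single libraries decided much. The counts below are of the 10 genes alone, and the shares of all genes called in the same refits are not reported here. Whether a refit called more of the 10 genes or more genes of every kind therefore cannot be told from them. The count called by immunization among the 50 values of the 10 genes was 0. It was 11 with no filter on low counts, 1 with DESeq2, 1 with HTODemux, 1 with strict gates (no B or plasma marker UMI outside the B gate), 1 in the capture ending 2 alone, and 0 to 6 when 1 mouse was left out, with 6 without immunized replicate 1. The count against the T and NK gate was 5 of 30. It was 10 with no filter, 2 without the medullary sinus marker barcodes and 1 to 6 when 1 mouse was left out, with 1 without unimmunized replicate 1 and 3 without immunized replicate 1. The count of differences between the macrophage and T and NK gates by immunization was 0. It was 4 with no filter and 0 to 2 when 1 mouse was left out. All 10 B gate calls, that of Igha included, became 8 to 10 over the alternatives.

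With the mouse as a replicate block, the count against the T and NK gate was 7 in place of 5, the B gate count was 10 and the count of differences between gates was 0.

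Directions changed in these cases, and the cause was not tested. The T and NK gate share difference was 0.000543 percentage points without immunized replicate 2, and -0.00394 to 0.000543 over the mice left out. By immunization, Ighd in the B gate differed by 0.58 without unimmunized replicate 1 (-1.19 to 0.58 over the mice left out), Igkc in the macrophage gate by 0.23 without the medullary sinus marker barcodes, Iglc3 in the monocyte gate by 2.22 and Iglc2 in the dendritic gate by 0.28 with strict gates. Ighm as a percentage of Ighm plus Igkc moved from 61.7 to 70.4% in the T and NK gate and from 67.9 to 50.0% in the dendritic gate with strict gates, and from 52.5 to 48.3% in the macrophage gate when barcodes were thinned to 2000 UMIs. Leaving out all shared sequences, single rich barcodes and the medullary sinus marker barcodes were alternatives chosen after seeing the data.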
